A study of Mus musculus with 23 samples.

Results

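Mitochondrial fatty acid oxidation was described here through 34 genes, chosen by name from the 24062 genes of the count table. They are the enzymes, carriers and regulators that take a fatty acid into the mitochondrion and shorten it there, and all 34 were found as rows of the table. RNA abundance was measured in whole gastrocnemius muscle, a hind limb muscle that the labels call skM, and in fat, which they call IAT without spelling the letters out. HL1002P mice carried a hypomorphic (H) allele of Bub1b and a missense allele, HH mice carried a pair of H alleles, and WT mice were wild type. Bub1b encodes BubR1, a protein of the spindle assembly checkpoint, and the labels describe both mutants as progeroid models of mosaic variegated aneuploidy. These are germline alleles, so a change in a tissue can arise in any cell of the animal. All mice were of a mixed 129Sve/C57BL/6 background and 8 to 10 months old, and the labels name no treatment. Muscle had 4 HL1002P, 3 HH and 4 WT libraries, and fat had 4 of each genotype.

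Long-chain fatty acids are first joined to coenzyme A, then carried into the mitochondrial matrix by the carnitine shuttle, and there lose carbon pairs in repeated rounds of dehydrogenation, hydration, a second dehydrogenation and thiolytic cleavage. Electrons of the first dehydrogenation pass through the electron transfer flavoprotein to the respiratory chain, and unsaturated chains need additional isomerases and a reductase. Muscle uses the pathway to make ATP at rest and during long exercise, whereas white fat mainly stores and releases fatty acids and runs the pathway at a lower rate. Much of its transcription is driven by nuclear receptors of the PPAR and ERR families, which bind DNA elements built around the half-site AGGTCA.

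The promoters below belong to members named in the results: Hadhb and Slc25a20 fell in HH muscle, Etfdh fell in the fat of both mutants, and Ucp3 was the member whose HL1002P difference was not alike in the tissues. Each is the 250 bases before the RefSeq transcription start, 5′ to 3′ on the strand of the gene, in GRCm38.p6, and capitals mark AGGTCA or its reverse complement TGACCT. The Hadhb window (chr5:30155003-30155252, + strand) lies within the 272 bases that separate Hadhb from Hadha, which is read from the opposite strand. The others are those of Slc25a20 (chr9:108661886-108662135, + strand), Etfdh (chr3:79628768-79629017, − strand) and Ucp3 (chr7:100472741-100472990, + strand).
Hadhb: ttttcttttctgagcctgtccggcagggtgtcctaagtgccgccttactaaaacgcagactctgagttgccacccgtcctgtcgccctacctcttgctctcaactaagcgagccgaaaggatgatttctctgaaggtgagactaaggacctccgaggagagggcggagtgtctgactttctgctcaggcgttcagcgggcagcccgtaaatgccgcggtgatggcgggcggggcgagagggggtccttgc
Slc25a20: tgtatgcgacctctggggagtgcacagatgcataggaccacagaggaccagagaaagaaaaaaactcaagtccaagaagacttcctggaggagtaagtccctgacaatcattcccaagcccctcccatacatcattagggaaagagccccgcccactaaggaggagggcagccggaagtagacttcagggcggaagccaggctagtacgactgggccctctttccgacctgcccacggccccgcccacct
Etfdh: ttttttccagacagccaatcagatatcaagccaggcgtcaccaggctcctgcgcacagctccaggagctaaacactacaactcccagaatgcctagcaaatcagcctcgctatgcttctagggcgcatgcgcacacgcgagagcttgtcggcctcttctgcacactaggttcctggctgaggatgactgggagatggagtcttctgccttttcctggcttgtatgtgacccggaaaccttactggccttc
Ucp3: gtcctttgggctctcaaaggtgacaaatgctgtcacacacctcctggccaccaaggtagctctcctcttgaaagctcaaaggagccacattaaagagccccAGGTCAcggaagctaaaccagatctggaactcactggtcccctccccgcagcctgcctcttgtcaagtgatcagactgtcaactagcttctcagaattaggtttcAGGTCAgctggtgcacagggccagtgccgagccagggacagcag
The Ucp3 window held the half-site at 2 places, which begin 149 and 44 bases before the start, and no match was found in the other windows printed. Promoters were at hand for 28 of the 34 members, and 5 of these (17.9%) held AGGTCA on either strand: Acadm, Acadvl, Cpt1a, Echs1 and Ucp3. Of all 27025 genes with a promoter of this length, 4260 (15.8%) held it. The longer ERR element TCAAGGTCA, which contains the half-site, was found in 0 of 28 members and in 114 genes (0.422%).

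Library totals were 34.1 to 55.3 M counts in muscle and 22.6 to 58.8 M in fat, and all levels below are normalised read counts, in CPM on TMM-scaled library sizes. Bub1b itself was at 0.181 to 0.273 CPM in HL1002P muscle and 0.326 to 0.520 CPM in HH muscle, against 0.726 to 0.952 CPM in WT muscle, so the groups did not overlap. These levels rest on 38 counts in HL1002P, 55 in HH and 154 in WT. The log2 fold change of Bub1b was −1.96 ± 0.32 in HL1002P muscle (SE; edgeR adjusted p = 0.0498). In HH muscle it was −1.07 ± 0.33 and did not pass (edgeR adjusted p = 0.147). In fat it was at 6.12 to 22.1 CPM in HL1002P, 5.96 to 14.3 CPM in HH and 7.08 to 11.6 CPM in WT, and the groups overlapped. Skeletal muscle markers (Acta1, Ckm and 5 others) summed to 121000 CPM or more in every muscle library, and white fat cell markers (Adipoq, Lep, Plin1 and 7 others) to 16900 CPM or more in every fat library. Y-linked transcripts marked 2 HL1002P, 2 HH and 2 WT muscle libraries, and 3 HL1002P, 3 HH and 2 WT fat libraries; Xist marked the others. In 3 fat libraries (HL1002P replicate 4, HH replicate 1 and WT replicate 3) the skeletal muscle markers reached 5120, 12900 and 13500 CPM, against 33.0 to 1300 CPM in the other 9. Replicates are separate samples by their labels, which do not say whether they came from separate mice, so p-values rest on a spread between samples that may be in part technical. In tissue RNA, fewer cells of a type and less RNA per cell cannot be told apart.

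Of the 33 members tested, 23 were higher and 2 lower in WT muscle than in WT fat. Of all 12229 genes in that fit, 35.7% were higher in muscle and 41.3% lower. The median log2 fold change of the members was 0.98, against −0.13 over all genes. Acacb, the mitochondrial acetyl-CoA carboxylase whose product malonyl-CoA blocks carnitine palmitoyltransferase 1, differed most, by 3.70 ± 0.26 on the log2 scale (SE; edgeR adjusted p = 1.13e-10). Pdk4, the kinase that switches off pyruvate dehydrogenase when fat is burned, differed by 3.12 ± 0.54 (edgeR adjusted p = 3.13e-05), and Mlycd, the decarboxylase that removes malonyl-CoA, by 2.63 ± 0.16 (edgeR adjusted p = 1.48e-11). The 2 that were lower in muscle were Cpt1a (−2.61 ± 0.22; edgeR adjusted p = 1.52e-09), the outer-membrane enzyme that commits acyl groups to the shuttle and is known as the liver form, and Acsl1 (−1.51 ± 0.32; edgeR adjusted p = 0.000287), which joins long-chain fatty acids to coenzyme A. The 8 that did not pass were Cpt2, Acad10, Acad11, Hadh, Echs1, Ech1, Decr1 and Acot1. Upper-quartile scaling moved the median of all genes in this comparison by −0.27 and left 19 members higher and 3 lower.

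Levels were also divided by the merged exon length of each gene, which counts the exons of every annotated transcript. A gene whose merged length exceeds that of the transcripts made in the tissue gets too low a value, so ranks are rough. Hadhb, for one, had 1020 CPM in WT muscle (scaled over both tissues) and 6.595 kb, and Etfb 393 CPM and 1.164 kb. Per kb the highest levels in WT muscle were those of Etfb (337 ± 43.1 CPM per kb with SD, n = 4), Acadvl (300 ± 38.7) and Pdk4 (288 ± 96.8). Etfb is a subunit of the electron transfer flavoprotein and Acadvl the dehydrogenase of very long chains. Their ranges overlapped (281 to 385, 262 to 353 and 169 to 370 CPM per kb), as did those of Ech1 (217 to 355) and Acaa2 (219 to 312), so the order among these 5 was not resolved. In WT fat Ech1 (206 ± 71.9 CPM per kb), Etfb (187 ± 62.0), Acsl1 (141 ± 71.8) and Etfa (132 ± 38.9) led, again with overlapping ranges. At the low end of WT muscle stood Cpt1a (2.36 ± 0.622 CPM per kb), Acad10 (1.98 ± 0.346), Acot1 (1.2 ± 0.504) and Cpt1b (0.105 ± 0.0761), of which Cpt1a and Acad10 overlapped, Acot1 (0.462 to 1.57 CPM per kb) lay just below Acad10 (1.59 to 2.43), and Cpt1b lay below Acot1.

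**Figure D1:**
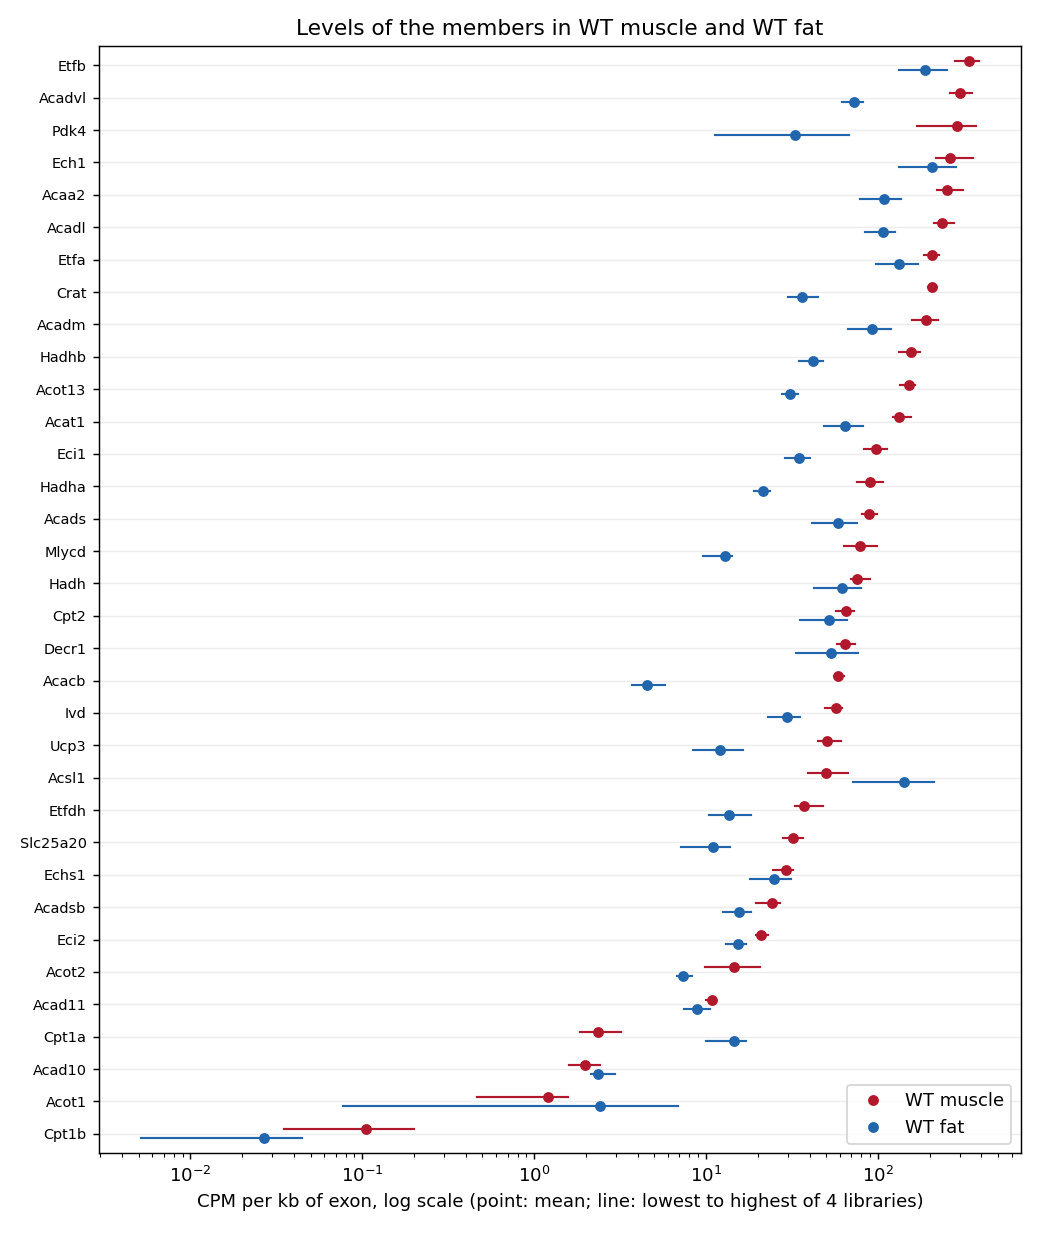
Level of each member per kb of exon in WT muscle and WT fat, on a log axis in CPM per kb; points are means and lines run from the lowest to the highest library (n = 4 each). Acacb and Pdk4 lie far higher in muscle, Cpt1a and Acsl1 lie higher in fat, and Cpt1b sits near the bottom in both tissues.

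Cpt1b, the muscle form of carnitine palmitoyltransferase 1, was nearly undetected in muscle. Its row held 0.144, 0.271, 0.350 and 0.382 CPM in HL1002P muscle and 0.233, 0.199 and 0.217 CPM in HH muscle, against 0.443, 0.296, 0.0778 and 0.116 CPM in WT muscle. No genotype stood apart, and in fat it was at 0.238 CPM or less in every library, too low to be tested there. Of the 50-base words of its transcripts, 78.6% also occur in an overlapping annotated readthrough transcript that runs from the neighbouring Chkb gene into Cpt1b. The rows of Chkb and of the readthrough gene in the count table were near or at 0 as well (0.160 to 0.261 and 0 CPM as group means in muscle). How reads shared by overlapping genes were counted is not given in the sources used here, so the values of this row do not show how much Cpt1b RNA the muscle held.

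In HH muscle 5 of the 34 members were lower than in WT muscle, and none was higher. The 5 were Hadhb and Hadha, the paired subunits of the mitochondrial trifunctional protein, Acaa2, a medium-chain 3-ketoacyl-CoA thiolase, Decr1, the dienoyl-CoA reductase, and Slc25a20, the carnitine-acylcarnitine carrier of the inner membrane. Their fitted levels were 0.58 to 0.673 times those of WT. Over all 14580 genes tested in muscle, 0.178% were lower and 0.199% higher in this comparison. The log2 fold change was below 0 for 31 of the 34 members, with a median of −0.43, whereas 47.9% of all genes were below 0 and their median was 0.01. The libraries of HH and WT did not overlap for 20 members, all lower in HH, and 6.56% of all genes were lower without overlap.

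In HL1002P muscle 0 of the 34 members passed edgeR's quasi-likelihood test with Benjamini-Hochberg adjustment. The background was 0.0412% of genes lower and 0.0754% higher. At an unadjusted p under 0.05 there were 21 members among 1537 genes of 14580, DESeq2 called 7 members, all lower, and limma voom 0. DESeq2 itself called 0.378% of all genes lower in this comparison; in HH muscle it called 18 members lower, against 1.98% of all genes, and in the mean of both mutants 19, against 1.72%. The log2 fold change was below 0 for 31 members with a median of −0.30, against 49.4% and 0.00 over all genes. For 18 members every HL1002P library lay below every WT library, against 2.57% of all genes. The comparisons of the mutants with WT share the 4 WT libraries, so their values are given side by side and not as separate support.

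**Figure D2:**
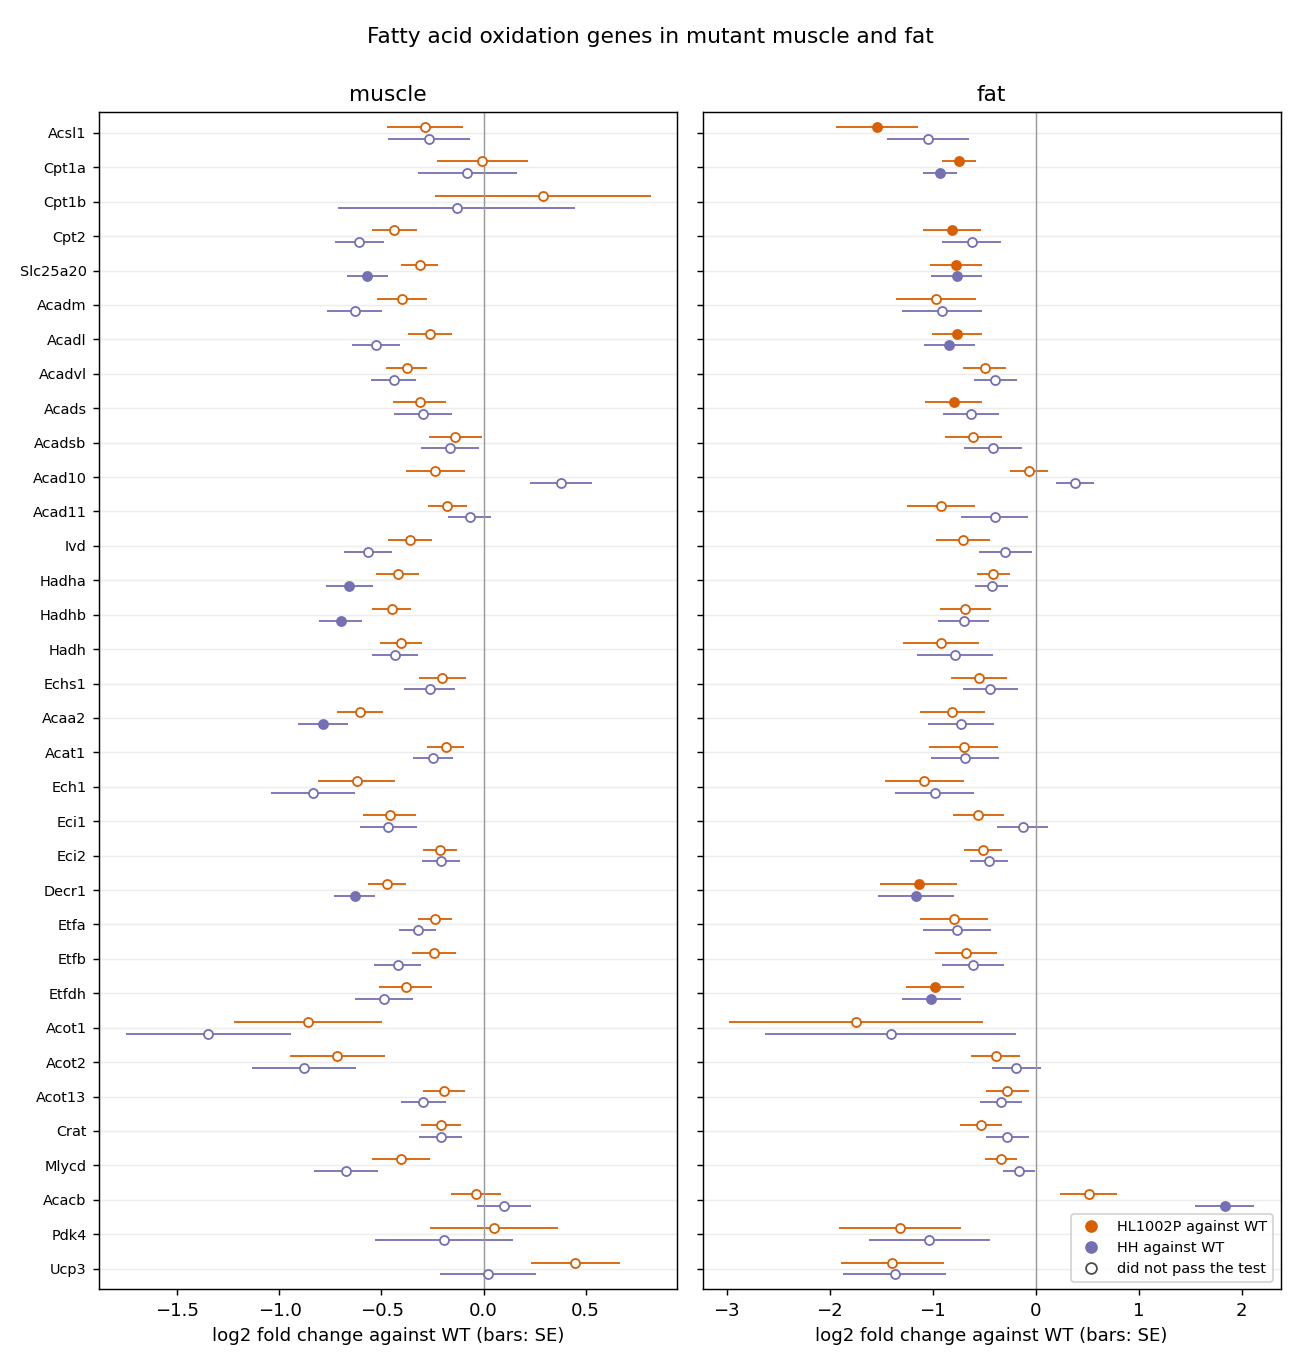
Log2 fold change against WT (with SE) of every tested member, for HL1002P and HH, in muscle and in fat; filled marks passed the test. In muscle the points of 31 of 34 members lie below 0 in each mutant, with HH mostly the lower, and in fat Acacb in HH lies alone far above 0.

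A contrast that averages both mutants holds more libraries. The mean of both mutants was lower than WT for 6 members and higher for 0, where 0.254% of all genes were lower and 0.267% higher. Acaa2 fell by 0.70 ± 0.10 on the log2 scale in this contrast (SE; edgeR adjusted p = 0.00927). Hadhb (−0.58 ± 0.09; edgeR adjusted p = 0.0121), Decr1 (−0.55 ± 0.08; 0.0121), Hadha (−0.54 ± 0.09; 0.0327), Cpt2 (−0.52 ± 0.10; 0.0372) and Slc25a20 (−0.44 ± 0.08; 0.0374) fell with it. Acaa2 passed with each of the 11 muscle libraries left out in turn, and Hadhb and Decr1 passed in 10 of those 11 fits, all but the one without WT replicate 3. Hadha passed in 5 of them, and Cpt2 and Slc25a20 in 4 each. With limma voom Cpt2 and Slc25a20 lost their calls.

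The hydratase, dehydrogenase and thiolase steps held 3 of the 5 HH calls, out of 6 members with a median log2 fold change of −0.55 in HH and −0.41 in HL1002P. Hadhb, whose product is the thiolase of the trifunctional protein, had 501, 484, 494 and 493 CPM in HL1002P muscle and 393, 402 and 448 CPM in HH muscle, against 581, 753, 703 and 658 CPM in WT muscle. Every HH library was below every HL1002P library, and every HL1002P library was below every WT library. The log2 fold change was −0.45 ± 0.10 in HL1002P (edgeR adjusted p = 0.153) and −0.70 ± 0.11 in HH (edgeR adjusted p = 0.0172). Of Hadhb's 50-base words, 18.1% occur in the gene Gm13910, so its row may miss reads. Hadha, the hydratase and dehydrogenase subunit of the same protein, had 363, 363, 399.6 and 420.2 CPM in HL1002P muscle and 327, 329 and 328 CPM in HH muscle, against 439, 609, 523 and 499 CPM in WT muscle. The HH libraries were nearly alike, and the 3 groups again did not overlap. Its log2 fold change was −0.42 ± 0.11 in HL1002P (edgeR adjusted p = 0.244) and −0.66 ± 0.12 in HH (edgeR adjusted p = 0.0315).

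Acaa2 (chromosome 18, 74779212 to 74806207), whose thiolase cuts off the last acetyl-CoA of a round, had 156, 164, 162 and 182 CPM in HL1002P muscle and 134, 148 and 157 CPM in HH muscle, against 219, 309, 247 and 236 CPM in WT muscle. Both mutants lay wholly below WT, and they overlapped each other. Its log2 fold change was −0.61 ± 0.11 in HL1002P (edgeR adjusted p = 0.0955), the smallest adjusted p of any member there, and −0.79 ± 0.12 in HH (edgeR adjusted p = 0.0185). The other members of this step did not pass. Hadh, the dehydrogenase of medium and short chains, averaged 186 ± 9.27 CPM in HL1002P and 183 ± 18.3 CPM in HH, against 247 ± 30.7 CPM in WT (SD, n = 4, 3 and 4). Acat1, which acts on the last acetoacetyl-CoA, averaged 290 ± 4.57 CPM in HL1002P and 278 ± 12.1 CPM in HH, against 330 ± 36 CPM in WT, and Echs1, the short-chain hydratase, 139 ± 16.3 and 133 ± 12.3 CPM in these mutants, against 160 ± 20 CPM in WT.

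Of the 4 isomerases and reductase, which prepare unsaturated chains, Decr1 fell in HH muscle, and their median log2 fold change was −0.55 in HH and −0.47 in HL1002P. Decr1 had 114, 119.9, 121 and 121 CPM in HL1002P muscle and 97.2, 113 and 109.7 CPM in HH muscle, against 151, 186, 173 and 149 CPM in WT muscle. The 3 groups did not overlap, though the highest HH and the lowest HL1002P library were close. Its log2 fold change was −0.47 ± 0.09 in HL1002P (edgeR adjusted p = 0.106) and −0.63 ± 0.10 in HH (edgeR adjusted p = 0.0213). Ech1, Eci1 and Eci2, the isomerases, did not pass and lay wholly below WT in both mutants. Ech1 averaged 257 ± 38.3 CPM in HL1002P and 222 ± 56.2 CPM in HH, against 396 ± 91.2 CPM in WT, Eci1 98.6 ± 16.2 and 98.2 ± 7.12 CPM in these mutants, against 136 ± 16.4 CPM in WT, and Eci2 66.3 ± 3.64 and 66.6 ± 4.6 CPM, against 76.9 ± 5.58 CPM in WT.

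In activation and the carnitine shuttle 1 of 5 members, the inner-membrane carrier, fell in HH muscle, and the median log2 fold change was −0.27 in HH and −0.29 in HL1002P. Slc25a20 had 85.8, 80.7, 83.1 and 80.3 CPM in HL1002P muscle and 71.3, 63.1 and 72.5 CPM in HH muscle, against 89.7, 117, 100.1 and 103 CPM in WT muscle, and the 3 groups did not overlap. Its log2 fold change was −0.31 ± 0.09 in HL1002P (edgeR adjusted p = 0.288) and −0.57 ± 0.10 in HH (edgeR adjusted p = 0.0315). Cpt2, which hands the acyl group back to coenzyme A in the matrix, averaged 76.3 ± 6.22 CPM in HL1002P and 67.8 ± 9.37 CPM in HH, against 103 ± 10.2 CPM in WT, without overlap of either mutant with WT. Its HH value missed the threshold (−0.61 ± 0.12; edgeR adjusted p = 0.0553). Cpt1a had 8.41, 12.1, 11.8 and 15.1 CPM in HL1002P muscle and 12.0, 7.97 and 13.9 CPM in HH muscle, against 9.34, 16.0, 12.5 and 9.82 CPM in WT muscle. Its groups overlapped throughout, with log2 fold changes of −0.01 ± 0.22 in HL1002P (edgeR adjusted p = 0.996) and −0.08 ± 0.24 in HH (edgeR adjusted p = 0.9). Acsl1 averaged 281 ± 38.8 CPM in HL1002P and 285 ± 63.2 CPM in HH, against 343 ± 85.9 CPM in WT, and the groups overlapped.

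**Figure D3:**
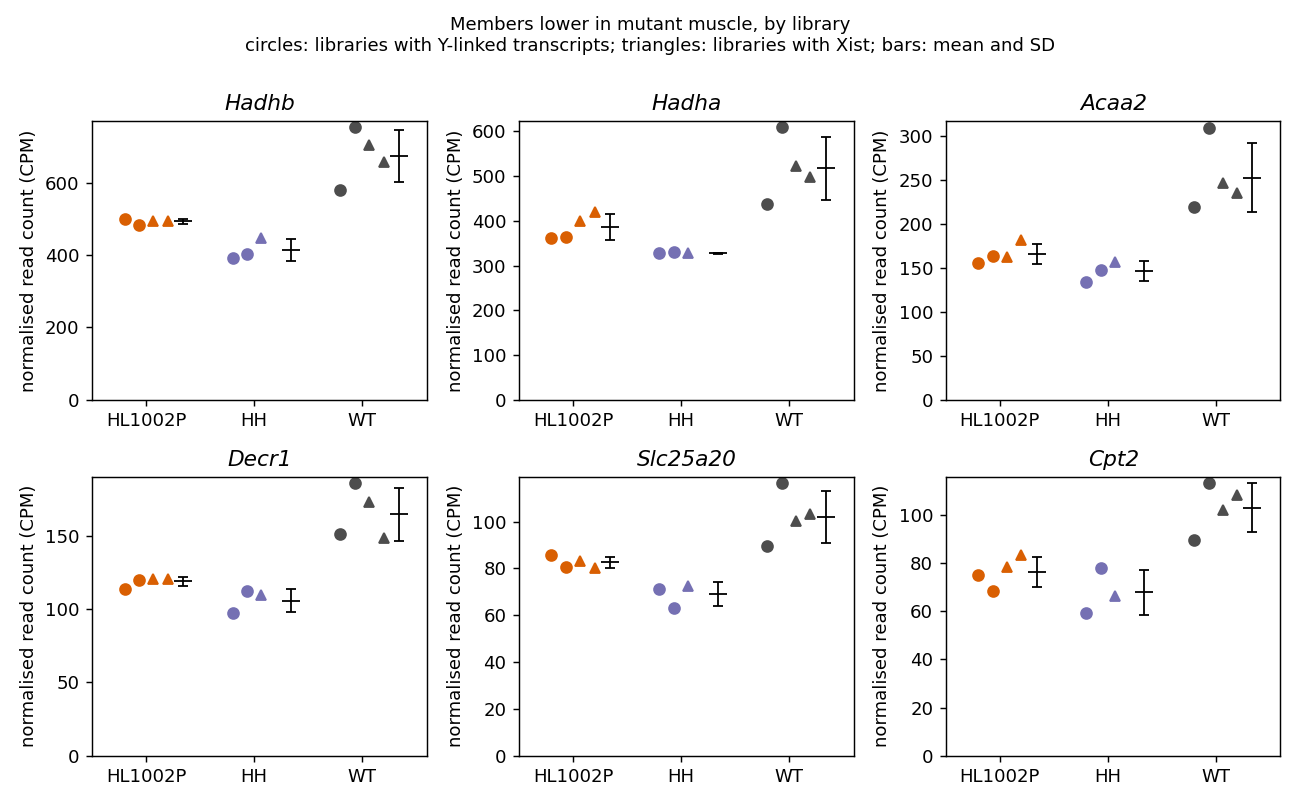
CPM of Hadhb, Hadha, Acaa2, Decr1, Slc25a20 and Cpt2 in each muscle library (HL1002P, n = 4; HH, n = 3; WT, n = 4); points are libraries and bars are means with SD. In all 6 panels every WT library lies above every mutant library, and in 4 of them (Hadhb, Hadha, Decr1 and Slc25a20) HH also lies wholly below HL1002P.

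The 8 acyl-CoA dehydrogenases, which open each round for chains of one length range or for branched chains, had a median log2 fold change of −0.37 in HH muscle and −0.29 in HL1002P muscle, and none passed. Acadm, Acadl and Acadvl (medium, long and very long chains) lay wholly below WT in both mutants. Acadl had 260.2, 257, 244 and 281 CPM in HL1002P muscle and 249, 192 and 209.6 CPM in HH muscle, against 283, 362, 297 and 307 CPM in WT muscle, with HH and HL1002P overlapping in 1 library. Its log2 fold change was −0.26 ± 0.11 in HL1002P (edgeR adjusted p = 0.443) and −0.53 ± 0.12 in HH (edgeR adjusted p = 0.0723). Acadm averaged 369 ± 26.7 CPM in HL1002P and 314 ± 44.9 CPM in HH, against 487 ± 68.8 CPM in WT, and Acadvl 409 ± 15.9 and 392 ± 24.9 CPM in these mutants, against 532 ± 65.9 CPM in WT. Ivd, the isovaleryl-CoA dehydrogenase of leucine breakdown, averaged 160 ± 16.9 CPM in HL1002P and 139 ± 10.6 CPM in HH, against 206 ± 22.8 CPM in WT; it lies 0.264 Mb from Bub1b on chromosome 2. Acads (short chains) averaged 106 ± 9.44 CPM in HL1002P and 107 ± 24.7 CPM in HH, against 132 ± 10.9 CPM in WT. Acadsb (short branched chains) and Acad11 had group means of 103 to 115 CPM and 61.8 to 69.9 CPM. Acad10 was the member with the highest HH value, at 0.38 ± 0.15 (edgeR adjusted p = 0.249), with 9.02 to 11.4 CPM in HH against 6.31 to 9.73 CPM in WT. Of Acad10's 50-base words, 16.8% occur in Acad12, so the split of reads between them is uncertain.

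The 3 members of electron transfer had medians of −0.42 in HH muscle and −0.24 in HL1002P muscle, and none passed. Etfdh, which passes electrons from the flavoprotein to ubiquinone, had 119, 137, 157 and 151 CPM in HL1002P muscle and 136, 132 and 125 CPM in HH muscle, against 162, 235, 165 and 172 CPM in WT muscle. Both mutants lay below WT, whose replicate 2 stood far above its other libraries, and the log2 fold change was −0.38 ± 0.13 in HL1002P (edgeR adjusted p = 0.348) and −0.49 ± 0.14 in HH (edgeR adjusted p = 0.129). Etfa and Etfb, the subunits of the flavoprotein, averaged 212 ± 9 and 219 ± 18.4 CPM in HL1002P and 199 ± 9.36 and 194 ± 10.1 CPM in HH, against 249 ± 20.1 and 259 ± 33.8 CPM in WT. Of Etfb's 50-base words, 43.8% occur in an overlapping predicted gene, so its row may miss reads.

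Among the thioesterases and carnitine acetyltransferase, which return acyl groups from coenzyme A, 0 of 4 passed, with medians of −0.59 in HH muscle and −0.46 in HL1002P muscle. Acot1, the cytosolic form, was low and had the most negative value of all members, −1.35 ± 0.41 in HH (edgeR adjusted p = 0.139), from 0.895 to 1.73 CPM in HH against 1.195 to 4.02 CPM in WT. Acot2, its mitochondrial neighbour 15624 bases away on chromosome 12, averaged 12.8 ± 2.92 CPM in HL1002P and 11.5 ± 2.25 CPM in HH, against 21.1 ± 6.78 CPM in WT. They share sequence (24.5% of Acot2's 50-base words occur in Acot1), so the split of reads between them is uncertain. Acot13 averaged 64.7 ± 4.41 CPM in HL1002P and 60.4 ± 7.69 CPM in HH, against 74.1 ± 6.96 CPM in WT, and Crat, the acetyltransferase, 632 ± 21 and 632 ± 85.6 CPM in these mutants, against 731 ± 35.2 CPM in WT.

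The 4 regulators had median log2 fold changes of −0.09 in HH muscle and 0.01 in HL1002P muscle, and none passed. Pdk4 had 544, 629.7, 601 and 987 CPM in HL1002P muscle and 722, 298 and 726 CPM in HH muscle, against 393, 835, 574 and 864 CPM in WT muscle. Its values varied widely within each genotype, and the groups overlapped (0.05 ± 0.31 in HL1002P, edgeR adjusted p = 0.97; −0.20 ± 0.34 in HH, edgeR adjusted p = 0.817). Acacb had 305, 349, 415 and 387 CPM in HL1002P muscle and 474, 375 and 352 CPM in HH muscle, against 379, 399, 358 and 356 CPM in WT muscle, and the groups overlapped. Ucp3, the mitochondrial uncoupling protein of muscle, averaged 142 ± 45.5 CPM in HL1002P and 105 ± 26.7 CPM in HH, against 104 ± 15.5 CPM in WT. Mlycd averaged 117 ± 12.8 CPM in HL1002P and 96.8 ± 11.1 CPM in HH, against 154 ± 31.4 CPM in WT, and its HH libraries lay below WT (−0.67 ± 0.16; edgeR adjusted p = 0.0754).

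The means of 25 of the 34 members stood in the order HH lowest, HL1002P between and WT highest, an order found for 23.6% of all genes. The direct comparison of HL1002P with HH nevertheless called 0 members by edgeR, DESeq2 or limma voom, where edgeR called 0.0206% of all genes, and 4 members had an unadjusted p under 0.05. Of the 34 values 28 were above 0, with a median of 0.13. The smallest p belonged to Acad10 (−0.62 ± 0.15; edgeR adjusted p = 0.543), whose 4 HL1002P libraries (5.96 to 7.19 CPM) lay below the 3 HH libraries (9.02 to 11.4 CPM). For Hadhb the difference was 0.25 ± 0.11 and for Slc25a20 0.26 ± 0.10 (edgeR adjusted p = 0.988 for both), so an order of the 2 mutants was not resolved gene by gene.

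The HH calls in muscle rested on few libraries. The count of 5 was 0 without WT replicate 3 or HH replicate 1, and 1 without HH replicate 3. Over all genes, in either direction, 55 were called with all libraries and 22, 32 and 21 in these fits, in that order. Hadhb passed in 5 of the 7 fits with 1 library left out, Acaa2 and Decr1 in 4, and Hadha and Slc25a20 in 1. WT replicate 2 held the highest level of 21 of the 34 members, and without it the count was 3, with 46 calls over all genes. Among the libraries with Y-linked transcripts (2 each of HL1002P, HH and WT) the count was 0, where 6 of all genes passed. The median log2 fold change in HH was −0.43 there. Among the libraries with Xist (2 HL1002P, 1 HH and 2 WT) that median was −0.38.

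The neighbouring pathways held few calls in muscle, where lists of this size have few at the shares of all genes given above, but many of their values lay below 0. Of 32 subunits of oxidative phosphorylation 0 passed in either mutant, with 28 below 0 in HL1002P (median −0.13) and 30 in HH (median −0.16). Of 18 citric acid cycle enzymes 0 passed and all 18 were below 0 in each mutant, with medians of −0.17 in HL1002P and −0.18 in HH. Peroxisomal beta-oxidation had 0 of 21 past the test (medians −0.07 in HL1002P and −0.13 in HH), and branched-chain amino acid breakdown 0 of 24, with 22 below 0 in each mutant (−0.17 and −0.24). Among 30 other genes of carnitine and acyl-CoA handling 1 passed in each mutant, Fabp3, a cytosolic carrier of fatty acids in heart and muscle, at −0.94 ± 0.16 in HL1002P (edgeR adjusted p = 0.0499) and −1.64 ± 0.18 in HH (edgeR adjusted p = 0.00207). It was likewise the 1 of 15 PPAR target genes outside beta-oxidation that passed. The transcription factors were not seen to change: Ppara was at 0.22 ± 0.39 in HL1002P and −0.27 ± 0.42 in HH, its coactivator Ppargc1a at 0.19 ± 0.45 and 0.23 ± 0.48, and Esrra, the receptor ERR alpha, at −0.24 ± 0.13 and −0.24 ± 0.14, with edgeR adjusted p of 0.424 or more for all 3.

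Slow fibres are richer in these enzymes than fast glycolytic ones, and their markers varied between libraries. The 8 slow fibre markers (Myh7, Tnni1 and 6 others) summed to 7020 to 13100 CPM in HL1002P and 1190 to 8180 CPM in HH, against 1650 to 11600 CPM in WT, and all 8 were detected in every group. Their median log2 fold change was 0.22 in HL1002P and −0.68 in HH, and 0 of 8 passed in either. The 2 fast oxidative fibre markers, Myh1 and Myh2, went the other way in HH. They summed to 4540 to 8400 CPM in HL1002P and 7080 to 9640 CPM in HH, against 4260 to 7070 CPM in WT. Their median log2 fold change was 0.11 in HL1002P and 0.48 in HH, and 0 of 2 passed in either. Single libraries went both ways. WT replicate 1 had the lowest slow fibre sum of WT (1650 CPM) and the lowest members' sum of WT (7160 CPM). HH replicate 2 was lowest of all muscle libraries in both (1190 and 5991 CPM). HL1002P replicate 3 had the highest slow fibre sum (13100 CPM), with members at 6803 CPM. WT replicate 2 had the highest members' sum (9348 CPM), with a slow fibre sum of 9370 CPM. The 8 macrophage markers summed to 129 to 389 CPM in HL1002P and 171 to 235 CPM in HH, against 54.9 to 155 CPM in WT, and 0 of 8 passed. The part of fibre type or of macrophages in the members' values was not tested.

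In HL1002P fat 8 of 33 tested members were lower than in WT fat and 0 higher, where 14.5% of 16266 genes were lower and 17.3% higher. In HH fat 5 were lower and 1 higher, where 8.59% of genes were lower and 12.3% higher. Groups did not overlap for 6 members in HL1002P (all lower) and for 4 in HH (3 lower), where 12.4% and 10.9% of all genes were lower without overlap. The median log2 fold change of the members was −0.75 in HL1002P and −0.63 in HH, against −0.07 and −0.06 over all genes. The mean of both mutants had 17 members lower than WT and 1, Acacb, higher, where 18.7% of genes were lower and 19.0% higher. By role, 4 of 4 tested members of activation and the shuttle were lower in the mean (Cpt1a, Acsl1, Cpt2 and Slc25a20), 3 of 8 dehydrogenases (Acadl, Acadm and Acads), 4 of 6 at the hydratase, dehydrogenase and thiolase steps (Hadhb, Hadha, Hadh and Acaa2), 3 of 4 isomerases and reductase (Decr1, Ech1 and Eci2), 2 of 3 in electron transfer (Etfdh and Etfa), 1 of 4 regulators (Ucp3) and 0 of 4 thioesterases and carnitine acetyltransferase. Of these 18 calls, those of Cpt1a, Etfdh and Acacb held in all 12 fits with 1 library left out, those of Acsl1 and Acadl in 11, those of Slc25a20, Hadhb, Decr1 and Ucp3 in 10, that of Ech1 in 8 and the other 8 in 4 or 5. No member differed between HL1002P and HH by edgeR, where it called 0% of genes; 2 members had an unadjusted p under 0.05, DESeq2 called 1 and limma voom 0.

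Beside these values stand those of the cells in the tissue. The 8 lymphocyte markers (Cd3e, Ms4a1 and 6 others) summed to 1140 to 3260 CPM in HL1002P fat and 1390 to 2530 CPM in HH fat, against 108 to 616 CPM in WT fat, and 8 of 8 were higher in HL1002P and 5 of 8 in HH. The 10 white fat cell markers summed to 16900 to 33700 CPM in HL1002P and 20000 to 44600 CPM in HH, against 28000 to 58500 CPM in WT. Of these 10, 4 were lower in HL1002P and 0 in HH, where Cfd was higher. The 7 brown or beige fat cell markers summed to 51.2 to 198 CPM in HL1002P and 26.2 to 112 CPM in HH, against 86.9 to 188 CPM in WT. The highest of each genotype was its library with skeletal muscle transcripts, and 0 of 7 passed. The 8 macrophage markers summed to 1350 to 3260 CPM in HL1002P and 1690 to 3550 CPM in HH, against 1410 to 1860 CPM in WT. Of these 8, 1 was higher in HL1002P and 0 in HH. The 34 members summed to 3834 to 6603 CPM in HL1002P and 3906 to 7352 CPM in HH, against 6658 to 11630 CPM in WT. Per 1000 CPM of white fat markers the members' sum was 195 to 227 CPM in HL1002P and 165 to 203 CPM in HH, against 193 to 245 CPM in WT, and on that scale the sums overlapped. The 245 of WT and the 165 of HH belonged to libraries with skeletal muscle transcripts. Without the libraries that held these the range was 195 to 227 CPM in HL1002P and 196 to 203 CPM in HH, against 193 to 206 CPM in WT. Single members did not all follow the sum. On that scale Acsl1 and Ucp3 lay wholly below WT in HL1002P and Echs1 wholly above it, where 1.72% of all genes were lower and 12.3% higher without overlap. In HH Decr1, Etfdh and Ucp3 lay wholly below WT and Acacb above it, where 3.09% of genes were lower and 6.66% higher. Per 10000 CPM of white fat markers Acsl1 was at 242 to 351 CPM in HL1002P, against 377 to 577 CPM in WT. Etfdh was at 20.5 to 28.3 CPM in HH, against 29.9 to 39.6 CPM in WT, and Decr1 at 34.4 to 54.9 CPM in HH, against 57.6 to 75.3 CPM in WT.

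With the mean level of the white fat markers as a covariate, 0 members were lower in HL1002P and 3 in HH (Acadl, Cpt1a and Etfdh), and Acacb remained higher in HH, where 0% and 1.8% of all genes were lower in these mutants; the medians of the members became −0.06 and −0.16. With the lymphocyte markers as a covariate 0 members passed in either mutant, and 0 of all genes did. Without the 3 libraries that held skeletal muscle transcripts the counts were 26 lower in HL1002P, and 15 lower and 1 higher in HH, where 22.7% and 16.7% of all genes were lower. Among the libraries with Y-linked transcripts 26 members were lower in HL1002P and 18 in HH, with medians of −1.15 and −1.03, where 22.2% and 17.2% of all genes were lower. Among those with Xist (1 HL1002P, 1 HH and 2 WT) 0 members and 0 of all genes passed, with medians of −0.01 in HL1002P and 0.05 in HH. Cell makeup moved with genotype in these 12 libraries, and their parts in the members' values cannot be told apart.

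**Figure D4:**
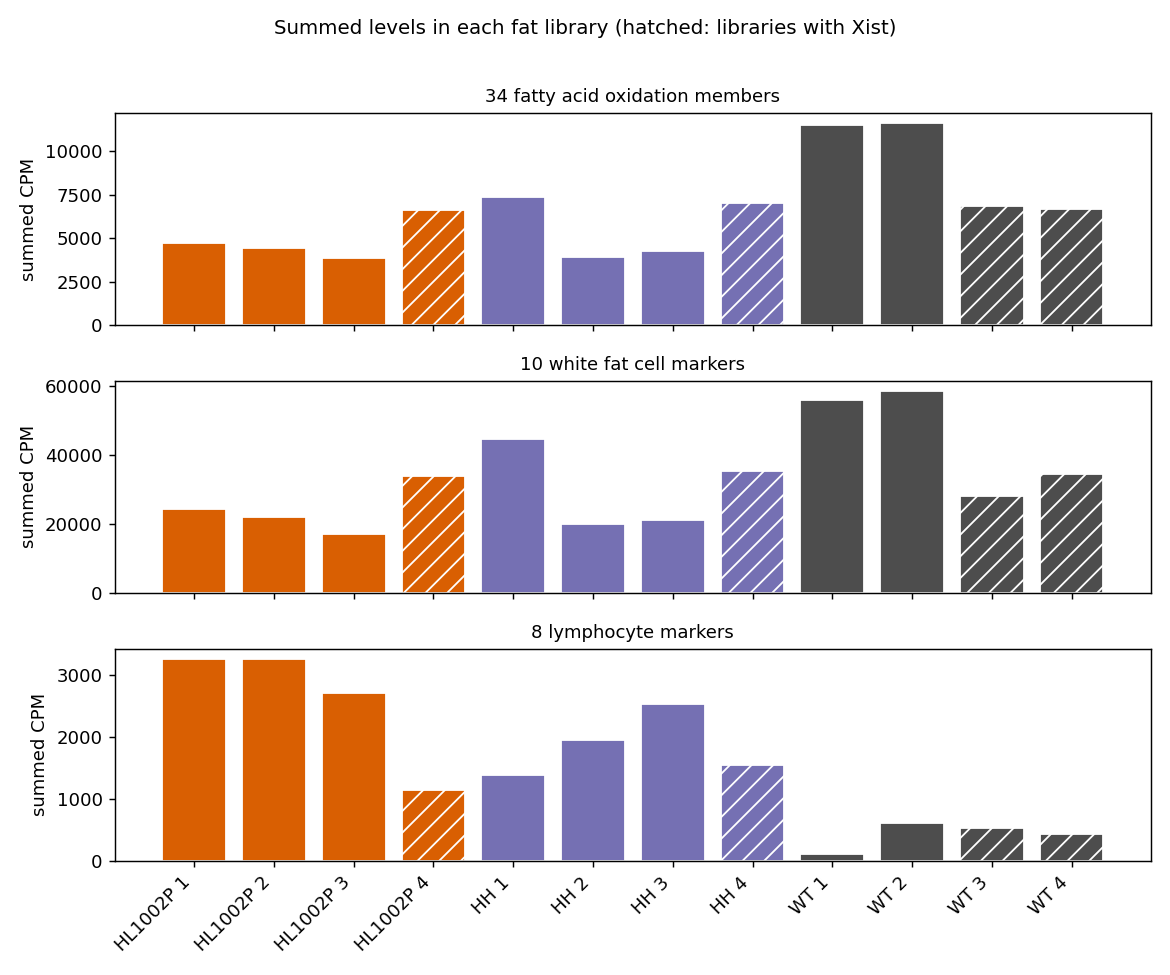
Summed CPM of the 34 members, of 10 white fat cell markers and of 8 lymphocyte markers in each fat library (HL1002P, HH and WT, n = 4 each); each bar is 1 library, and hatched bars are libraries with Xist. WT replicates 1 and 2 hold the highest sums of members and of white fat markers, and every mutant library holds more lymphocyte marker RNA than every WT library.

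All 4 tested members of activation and the carnitine shuttle were lower in HL1002P fat (median −0.79), and 2 of 4 in HH fat (median −0.85). Cpt1a had 105, 88.8, 95.2 and 93.4 CPM in HL1002P fat and 82.7, 97.6, 74.0 and 83.4 CPM in HH fat, against 191, 187, 157 and 108 CPM in WT fat. Every mutant library was below every WT library, and the mutants varied little. Its log2 fold change was −0.75 ± 0.17 in HL1002P (edgeR adjusted p = 0.0111) and −0.93 ± 0.17 in HH (edgeR adjusted p = 0.0113), and both calls held with any 1 library left out. Per 10000 CPM of white fat markers, however, Cpt1a averaged 41.9 ± 11.7 CPM in HL1002P and 31.5 ± 13.5 CPM in HH, against 38.3 ± 11.8 CPM in WT (SD, n = 4 each), which overlapped. Slc25a20 had 44.98, 38.1, 34.9 and 62.0 CPM in HL1002P and 61.5, 36.7, 38.6 and 43.7 CPM in HH, against 88.4, 99.4, 70.4 and 49.5 CPM in WT, with overlap in both (−0.77 ± 0.25 in HL1002P, edgeR adjusted p = 0.0368; −0.77 ± 0.25 in HH, edgeR adjusted p = 0.0488).

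Acsl1, chosen after its values were seen, had 853, 533, 492 and 1083 CPM in HL1002P and 1208, 917, 763 and 1282 CPM in HH, against 3228, 3018, 1072 and 1296 CPM in WT. WT replicates 1 and 2, the libraries with Y-linked transcripts, held far more than replicates 3 and 4, and the groups overlapped. It fell in HL1002P (−1.54 ± 0.40; edgeR adjusted p = 0.0178) and not in HH (−1.05 ± 0.39; edgeR adjusted p = 0.0762), a difference between the mutants that did not pass (edgeR adjusted p = 0.999). Cpt2 averaged 103 ± 22.9 CPM in HL1002P and 117 ± 38.6 CPM in HH, against 181 ± 58.7 CPM in WT, and passed in HL1002P (−0.81 ± 0.28; edgeR adjusted p = 0.0476).

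Etfdh had 68.9, 70.8, 58.3 and 105 CPM in HL1002P fat and 91.5, 50.3, 53.3 and 100.0 CPM in HH fat, against 167, 204, 111 and 114 CPM in WT fat. Both mutants lay below WT, by −0.98 ± 0.29 in HL1002P (edgeR adjusted p = 0.0264) and −1.01 ± 0.29 in HH (edgeR adjusted p = 0.0316). Etfa and Etfb did not pass in either mutant alone, though Etfa was lower in the mean of both (−0.78 ± 0.28; edgeR adjusted p = 0.0447); they averaged 203 ± 55.7 and 198 ± 46.3 CPM in HL1002P and 208 ± 87.8 and 207 ± 68.9 CPM in HH, against 353 ± 110 and 317 ± 111 CPM in WT. Decr1 had 126, 128, 112 and 183 CPM in HL1002P and 175, 68.7, 102 and 194 CPM in HH, against 387, 441, 184 and 198 CPM in WT. HL1002P lay just below WT and HH replicate 4 reached into it, with log2 fold changes of −1.14 ± 0.37 in HL1002P (edgeR adjusted p = 0.0375) and −1.17 ± 0.37 in HH (edgeR adjusted p = 0.0455). Ech1 averaged 324 ± 83.2 CPM in HL1002P and 347 ± 174 CPM in HH, against 685 ± 252 CPM in WT, and missed the threshold in HL1002P (−1.08 ± 0.39; edgeR adjusted p = 0.0515). In the mean of both mutants Ech1 was lower (−1.03 ± 0.32; edgeR adjusted p = 0.0275). Eci2 was lower in the mean as well (−0.48 ± 0.16; edgeR adjusted p = 0.032). Eci1 and Eci2 did not pass in either mutant alone, with HL1002P values of −0.56 and −0.51 and HH values of −0.13 and −0.46.

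Of the 8 dehydrogenases, Acadl and Acads fell in HL1002P fat and Acadl in HH fat (medians −0.73 in HL1002P and −0.41 in HH). Acadl had 172, 162, 146 and 253 CPM in HL1002P and 229.5, 134, 128 and 204 CPM in HH, against 367, 366, 239.6 and 273 CPM in WT. HH lay below WT, HL1002P replicate 4 reached into it, and the log2 fold changes were −0.77 ± 0.25 in HL1002P (edgeR adjusted p = 0.0361) and −0.84 ± 0.25 in HH (edgeR adjusted p = 0.0356). Acads averaged 111 ± 22.7 CPM in HL1002P and 124 ± 41.1 CPM in HH, against 192 ± 60.5 CPM in WT, and its HL1002P value was −0.80 ± 0.28 (edgeR adjusted p = 0.0461). The other 6 had HL1002P values of −0.97 (Acadm), −0.49 (Acadvl), −0.61 (Acadsb), −0.06 (Acad10), −0.92 (Acad11) and −0.70 (Ivd), and HH values between −0.91 (Acadm) and 0.38 (Acad10).

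Hadhb, Hadha and Acaa2, which fell in HH muscle, did not pass in the fat of either mutant alone and were lower in the mean of both, at −0.69 ± 0.21, −0.42 ± 0.14 and −0.77 ± 0.27 (edgeR adjusted p = 0.0241, 0.0311 and 0.0404). Hadhb had 241, 223, 203 and 328 CPM in HL1002P fat and 289, 161, 201 and 336 CPM in HH fat, against 457, 472, 345 and 328 CPM in WT fat, with HL1002P replicate 4 and HH replicate 4 at the level of WT replicate 4. Its log2 fold changes of −0.69 ± 0.25 in HL1002P and −0.70 ± 0.25 in HH missed the threshold (edgeR adjusted p = 0.0525 and 0.0628). Hadha (191, 202, 184 and 242 CPM in HL1002P and 221, 164, 179 and 246 CPM in HH, against 296, 304, 255 and 235 CPM in WT) and Acaa2 (119, 134, 104 and 184 CPM in HL1002P and 193, 78.6, 100 and 202 CPM in HH, against 258, 307, 214 and 171 CPM in WT) overlapped WT as well, in HL1002P and in HH. In either mutant alone Acat1, Hadh and Echs1 did not pass; they were at −0.70, −0.92 and −0.55 in HL1002P and at −0.69, −0.79 and −0.44 in HH. None of the thioesterases and carnitine acetyltransferase passed, with medians of −0.46 in HL1002P and −0.31 in HH. Acot1 ranged from 0.443 to 38.2 CPM within WT fat alone, and its log2 fold change of −1.75 ± 1.23 in HL1002P had the largest SE of the members.

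Acacb was the 1 member that rose. It had 72.4, 60.2, 146 and 81.7 CPM in HL1002P fat and 321, 206, 206 and 168 CPM in HH fat, against 61.7, 53.1, 79.7 and 58.1 CPM in WT fat. All 4 HH libraries lay above every HL1002P and every WT library, and HL1002P overlapped WT. The log2 fold change was 1.83 ± 0.29 in HH, a 3.56-fold higher level (edgeR adjusted p = 0.011), and 0.51 ± 0.28 in HL1002P (edgeR adjusted p = 0.169). The difference of HL1002P from HH was −1.32 ± 0.28; its p of 0.000604 did not pass after adjustment over all genes (edgeR adjusted p = 0.839), though DESeq2 called it. The highest HH library, replicate 1, was one of those with skeletal muscle transcripts, and Acacb is abundant in muscle. The other 3 HH libraries held 33.0 to 59.8 CPM of skeletal muscle markers and 168 to 206 CPM of Acacb. Without the 3 libraries that held muscle transcripts the HH value was 1.74 (edgeR adjusted p = 0.00631). With the lymphocyte markers as a covariate it was 1.89 ± 0.46 and lost its call (edgeR adjusted p = 0.669), in a fit where 0 of all genes passed. The part of muscle RNA or of cell makeup in the HH value was not tested. Per 10000 CPM of white fat markers Acacb averaged 80.0 ± 25.7 CPM in HH, against 16.4 ± 8.72 CPM in WT (SD, n = 4 each), and the groups did not overlap (47.4 to 103 CPM in HH, 9.07 to 28.5 CPM in WT).

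The other regulators did not pass in the fat of either mutant alone. Pdk4 had 40.2, 48.9, 56.3 and 123 CPM in HL1002P and 165, 34.2, 57.7 and 70.6 CPM in HH, against 157, 59.0, 341 and 112 CPM in WT, and the groups overlapped (−1.32 ± 0.59 in HL1002P, edgeR adjusted p = 0.105; −1.03 ± 0.59 in HH, edgeR adjusted p = 0.209). Its highest value in each genotype was in the library with skeletal muscle transcripts, and in muscle Pdk4 averaged 582 to 690 CPM. The part of muscle RNA in its fat values was not tested. Ucp3, chosen after its values were seen, had 11.6, 19.6, 17.3 and 34.7 CPM in HL1002P and 44.8, 7.55, 17.2 and 14.8 CPM in HH, against 75.6, 61.9, 43.2 and 37.6 CPM in WT. HL1002P lay wholly below WT and just missed the threshold (−1.39 ± 0.50; edgeR adjusted p = 0.0516), and HH replicate 1, with skeletal muscle transcripts, overlapped WT (−1.37 ± 0.50; edgeR adjusted p = 0.0685). In the mean of both mutants Ucp3 was lower (−1.38 ± 0.41; edgeR adjusted p = 0.0229). Mlycd averaged 43.5 ± 2.6 CPM in HL1002P and 49 ± 9.28 CPM in HH, against 55 ± 9.74 CPM in WT.

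**Figure D5:**
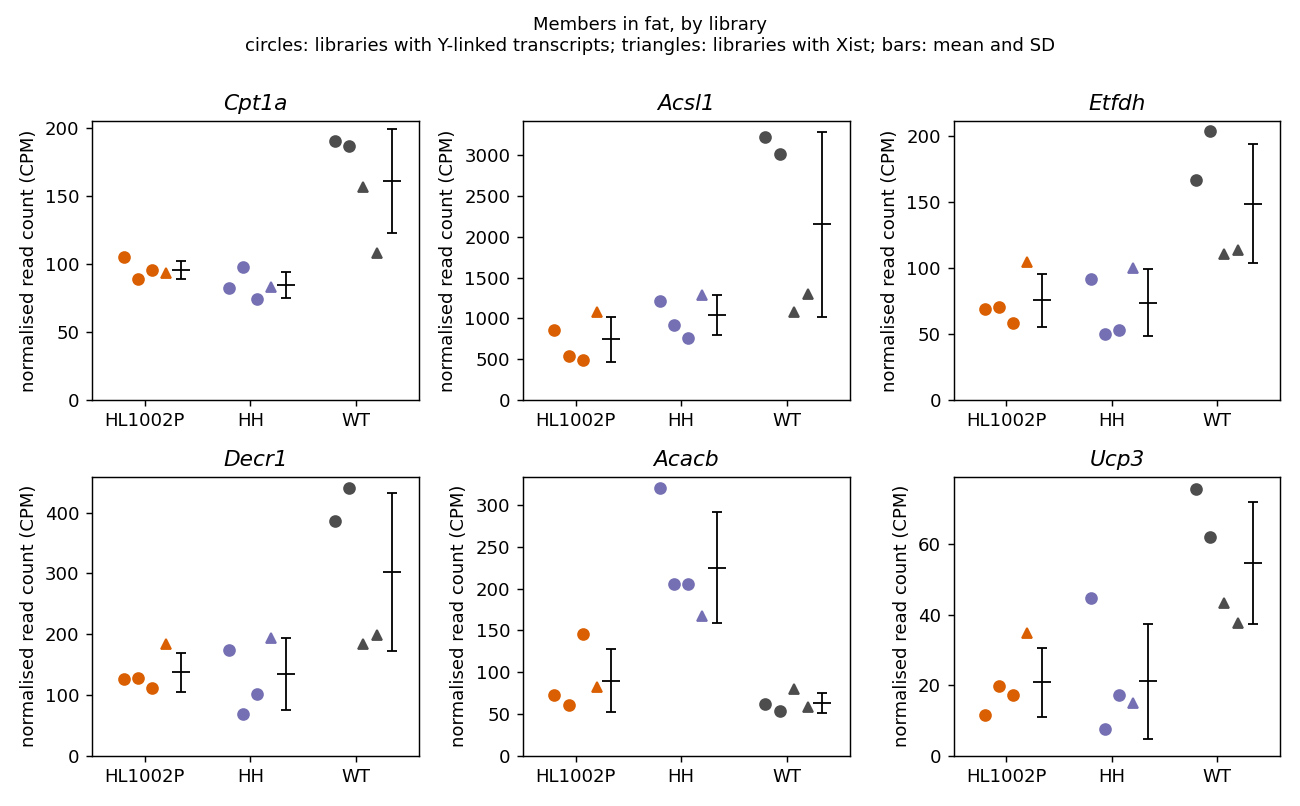
CPM of Cpt1a, Acsl1, Etfdh, Decr1, Acacb and Ucp3 in each fat library (HL1002P, HH and WT, n = 4 each); circles carry Y-linked transcripts, triangles Xist, and bars are means with SD. Cpt1a and Etfdh lie below WT in every mutant library, and Acacb lies above all others in the 4 HH libraries.

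The calls in fat also rested on few libraries. The HL1002P count of 8 was 1 without WT replicate 1, HL1002P replicate 2 or HL1002P replicate 3, 2 without WT replicate 2 or HL1002P replicate 1, and 23 without HL1002P replicate 4. The HH count of 5 was 1 without WT replicate 1 or 2 or HH replicate 2 or 3. Calls over all genes, in either direction, moved as well. In HL1002P they were 5167 with all libraries, 2023 to 3116 in the fits that left 1 or 2 members, and 7018 without HL1002P replicate 4. In HH they were 3391 with all libraries and 829 to 1514 in the fits that left 1 lower member. HH replicate 2 held the lowest level of 22 of the 33 tested members, and WT replicate 2 the highest of 15.

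Lists of other genes of lipid use had unequal shares of calls in fat, and the shares of all genes were 14.5% lower and 17.3% higher in HL1002P and 8.59% lower and 12.3% higher in HH. Of 22 genes of peroxisomal beta-oxidation 9 were lower and 1 higher in HL1002P, and 5 were lower and 1 higher in HH. Among them were Pex5, the import receptor of peroxisomal enzymes (−0.81 ± 0.16 in HL1002P, edgeR adjusted p = 0.0088; −0.58 ± 0.16 in HH, edgeR adjusted p = 0.0302), and Hsd17b4, the bifunctional enzyme (−1.29 in HL1002P and −1.18 in HH). Of 16 PPAR target genes outside beta-oxidation 9 were lower in HL1002P, and 6 were lower and 1 higher in HH, led by Fgf21, a fasting hormone (−2.84 ± 0.65 in HL1002P, edgeR adjusted p = 0.0123; −4.11 ± 0.70 in HH, edgeR adjusted p = 0.0113), and Plin2, a coat protein of lipid droplets (−1.56 and −1.59). Of 21 regulators of fatty acid oxidation 2 were lower and 2 higher in HL1002P, among them Pparg, the master factor of fat cells (−1.10 ± 0.32; edgeR adjusted p = 0.0255), and 2 were lower and 1 higher in HH. Ppara was at −0.40 in HL1002P and −0.22 in HH, Ppargc1a at −0.13 and −0.51, Esrra at −0.12 and 0.14 and Fabp3 at −1.48 and −1.66, and none of the 4 passed by edgeR (adjusted p of 0.284 or more). Among 32 other genes of carnitine and acyl-CoA handling 6 were lower and 2 higher in HL1002P, and 4 lower and 2 higher in HH. Branched-chain amino acid breakdown had 1 of 24 lower and 1 higher in HL1002P, and 0 lower and 1 higher in HH, and of 18 citric acid cycle enzymes 2 were lower in HL1002P and 0 in HH. Of 32 subunits of oxidative phosphorylation 0 passed, and all 32 values were below 0 in each mutant, with medians of −0.31 in HL1002P and −0.34 in HH.

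Whether a mutant's effect differed between the tissues was tested in 1 fit of all 23 libraries. For HL1002P 1 member passed, Ucp3, whose log2 fold change was higher in muscle than in fat by 1.79 ± 0.56 (edgeR adjusted p = 0.0354), in a comparison that called 18.5% of 12229 genes. Ucp3 in HL1002P muscle had 114, 98.8, 154 and 201 CPM, against 92.4, 102, 126 and 94.7 CPM in WT muscle, so it was not below WT there as it was in fat. The call held in 7 of the 16 fits with 1 library left out, over a range of 1.56 to 2.12. For HH 1 member passed, Acacb, whose log2 fold change was lower in muscle than in fat by 1.79 ± 0.34 (edgeR adjusted p = 0.0124), in a comparison that called 7.23% of genes. It passed in all 15 fits with 1 library left out. The median difference between the tissues, muscle minus fat, was 0.40 for HL1002P and 0.13 for HH over the members, and for Hadhb, Hadha, Acaa2, Decr1 and Slc25a20 no difference between the tissues passed.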

How the data were processed

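RNA of 23 libraries (11 of muscle, 12 of fat) was sequenced, and the authors deposited whole-number read counts per gene in 1 table of 24062 symbols. The submitters' processing notes name TopHat2 2.0.14, Bowtie2 2.2.6, featureCounts 1.4.6 (Subread) and the build mm10. Which annotation was used, whether strand was counted and how reads of several genes were treated is not given in the sources used here. Libraries of the TruSeq kit in the labels are unstranded.

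The members and the gene lists were chosen with earlier results of these data known. Counts were analysed in R 4.3.3 with edgeR 4.0.16 (TMM, filterByExpr by group, quasi-likelihood F tests, 1 coefficient per genotype, each tissue fitted alone; 14580 genes in muscle, 16266 in fat). Calls had a Benjamini-Hochberg adjusted p under 0.05 over all genes tested; SE is the log2 fold change over the root of F. WT tissues and tissue differences of an effect were fitted jointly in edgeR over the 12229 genes that averaged 1 CPM or more in both tissues, as if libraries were independent. limma 3.58.1 (voom) and DESeq2 1.42.0 were alternatives, beside other scalings and filters, covariates and left-out libraries. The scripts were tested on simulated data. No molecular identifiers were used, so counts are not counts of single molecules.

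Values in every library are given for members past the test in either mutant of either tissue without overlap with WT, and for Cpt1a, Cpt1b and Pdk4; others have means or ranges. A lymphocyte marker of the list as first written is not reported here, and sums and the covariate leave it out. Of other lists at most 3 members past the test are named per comparison, plus Ppara, Ppargc1a, Esrra and Fabp3. Exon lengths and shared 50-base words came from GENCODE, promoters from RefSeq (GRCm38.p6).

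Replicate numbers were checked by correlating deviations from group means of same-numbered libraries across genes, which are not independent replicates. In HL1002P against HH muscle all 3 pairs exceeded 0.1 (r = 0.285 to 0.381), so the numbers were taken as pairs there. Of these 3 pairs, 2 correlated best with their own number. Same-numbered libraries there also shared their sex transcripts (Y-linked in replicates 1 and 2, Xist in replicate 3), and the part of sex in r was not tested. The fit with the block called 0 members, as did the fit without it.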

Additional observations from a re-analysis of the deposited data

Results flagged for a closer look

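In 4 of 80 groups of 4 libraries (16 members) 1 library stood apart from the other 3, its gap over the range of the group being above Dixon's 95% critical value for 4 samples; chance gives about 1 in 20 such groups. Acads in HL1002P fat was at 144 CPM in replicate 4 (gap over range 0.892), and Acot1 in HL1002P fat was at 11.3 CPM in replicate 4 (0.932), the HL1002P fat library with Xist and with skeletal muscle transcripts. Etfdh in WT muscle was at 235 CPM in replicate 2 (0.87), the library that held the highest level of 21 of the 34 members. Decr1 in HL1002P muscle was at 114 CPM in replicate 1 (0.84), a gap that is small in CPM because the other 3 were nearly alike.

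The effect of a mutant differed between the tissues for 2 members, by an interaction test in edgeR over all genes that called 1 of 33 members and 18.5% of genes for HL1002P, and 1 of 33 members and 7.23% of genes for HH. The log2 fold change of Ucp3 in HL1002P was higher in muscle than in fat by 1.79 (edgeR adjusted p = 0.0354; the 4 fat values were all below WT, and the muscle values overlapped WT; the call held in 7 of 16 fits with 1 library left out), and that of Acacb in HH was lower in muscle than in fat, at −1.79 (edgeR adjusted p = 0.0124; the 4 fat values were all above WT). The part of cell makeup in either was not tested.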

How the results depend on the processing

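Of 1019 recomputed values of 45 named results, 697 kept their sign and call, 312 kept their sign and lost their call, and 10 turned. The 10 were all in fat among libraries with Xist (1 HL1002P, 1 HH and 2 WT): in HL1002P Cpt2 (0.05), Slc25a20 (0.05) and Acads (0.04), in HH Decr1 (0.02), and in the mean of both mutants Cpt2 (0.09), Acadm (0.13), Acads (0.08), Hadh (0.12), Acaa2 (0.01) and Etfa (0.11). The fits by Xist or Y-linked transcripts, with white fat markers and without muscle transcripts were chosen after seeing the data.

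Counts of members called, given with 1 library left out in turn, were 0 to 5 for HH muscle (5 with all), 1 to 8 for the mean of both mutants in muscle (6), 1 to 23 for HL1002P fat (8), 1 to 6 lower for HH fat (5), 2 to 23 lower for the mean in fat (17), 0 to 3 for the HL1002P effect between tissues (1) and 0 to 1 for HH effects higher in muscle (0). Calls over all genes, in either direction, moved in these fits too. They spanned 21 to 133 in HH muscle (55 with all) and 30 to 219 in the mean of muscle (76). In fat they spanned 2023 to 7018 in HL1002P (5167) and 829 to 4170 in HH (3391). For the mean in fat and the effects between tissues the counts of members stand without those of all genes. In muscle DESeq2 called 7 members in HL1002P, 18 in HH and 19 in the mean, all lower, where it called 0.378%, 1.98% and 1.72% of all genes lower. HH had 1 with the compared groups alone. By Y-linked transcripts HH and the mean had 0, where 6 of all genes passed in each. By Xist, with 1 HH library, the members' medians were −0.38 in HH and −0.33 in the mean. In HL1002P fat there were 22 with DESeq2, 13 with a mean of at least 1 CPM, 13 with the compared groups alone, 26 by Y-linked transcripts, 26 without muscle transcripts, and 0 by Xist or with the lymphocyte or white fat covariate. In HH fat 11 were lower with DESeq2, 3 with no filter, with the compared groups alone, with the replicate block and with the white fat covariate, 2 with sex as a covariate, 18 by Y-linked transcripts, 15 without muscle transcripts and 0 by Xist or the lymphocyte covariate; Acacb lost its call (0 higher) by Xist and with the lymphocyte covariate. DESeq2 called 20.1% of all genes lower in HL1002P fat and 15.6% in HH fat. In either direction edgeR called 5172 genes in HL1002P fat with a mean of at least 1 CPM and 4420 with the compared groups alone (5167 in the main fit). In HH fat it called 2912 with no filter, 2661 with the compared groups alone, 3501 with the block and 2484 with sex (3391). In HH muscle the compared groups alone gave 85 genes (55). The mean in fat had 26 lower without muscle transcripts, and 0 lower and 0 higher with either covariate. In either direction edgeR called 0 of all genes for the mean with the lymphocyte covariate and 543 with the white fat covariate (6140 in the main fit). Without muscle transcripts it called 7305 genes in HL1002P fat (5167) and 5505 in HH fat (3391). HL1002P against HH fat had 1 with DESeq2. The HL1002P effect between tissues had 2 with DESeq2 and 0 with no filter, given here without the calls over all genes. The cause of these moves was not tested, beyond fewer libraries in some fits.

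Replicate numbers outside the HL1002P and HH muscle pair were not taken as pairs (correlations of −0.375 to 0.627, across genes). With the replicate block the counts were 6 in HH muscle (Acadm and Cpt2 gained, Slc25a20 lost at −0.57 ± 0.12, edgeR adjusted p = 0.0501), 8 in the mean of muscle, 10 in HL1002P fat and 21 lower in the mean of fat. Over all genes, in either direction, the block gave 203 calls in HH muscle (55 without it) and 278 in the mean of muscle (76). In fat it gave 5046 in HL1002P (5167) and 6027 in the mean (6140). Values under 1 CPM rest on few reads, such as those of Cpt1b, whose row held 53 counts in HL1002P, 30 in HH and 45 in WT muscle. Why that row is low was not tested.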
